A study of Mus musculus with 2 samples.

Results

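The 10 genes described here encode matricellular proteins: the thrombospondins Thbs1, Thbs2, Thbs3 and Thbs4, the tenascins Tnc and Tnxb, periostin (Postn), SPARC (Sparc) and the spondins Spon1 and Spon2. They were chosen by name as a protein family, with earlier results of these data known. All 10 of 10 were found among 24646 named genes of the array table, each on 1 transcript cluster. RNA was measured on Affymetrix arrays in 2 samples of mouse mammary stromal cells, 1 control sample (Gli2WT) and 1 sample with Gli2 ablated in the stroma (Gli2∆S), from littermates 10 weeks old. The cells of both samples were dissociated from mammary glands and sorted for the green fluorescence that the Rosa26mTmG reporter shows where Fsp1Cre has acted, so both carry the Cre driver and the reporter. Fsp1 (S100a4) is known to be expressed in fibroblasts and also in some immune cells, so the gate can hold more than fibroblasts. The labels give each array 1 number, and no source used here says how many animals stand behind it. Since each group holds 1 sample, no test between the groups was possible and no p-value is given.

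Matricellular proteins are secreted into the extracellular matrix, where they bind cell surface receptors, growth factors and proteases rather than forming the load-bearing scaffold. Fibroblasts are a major source of them, and their expression is known to be high in developing, wounded and remodelling tissue. Gli2 transmits hedgehog signals in the nucleus, and the study's design text asks which stromal factors its activity induces.

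The arrays had signals from 1.94 to 13.6 (control) and 1.73 to 13.59 (ablated) on the log2 scale, with a median of 6.13 in both, and a Pearson r of 0.982 across transcript clusters, which are not replicates. Gli2 itself had log2 signals of 5.94 (control) and 5.32 (ablated) in the deposited comparison table, a difference of -0.62. The series' deposited value table gives 5.94 and 5.72 for the same cluster, a difference of -0.22, where the spread of genes of like signal was 0.24. All of these Gli2 signals lay below the signal filter described next, so the ablation is not shown by its own target. Where the Gli2 probes lie relative to the deleted part was not stated in those sources. No value of a matricellular gene differed between the deposited tables beyond rounding. All 12 fibroblast markers on a fixed list, and all 11 T and NK cell markers found, passed the signal filter of 6.445. That filter is the median over all named genes of the higher of a gene's signals, and a signal below it may be background.

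Of the 10 matricellular genes, 7 were at least 2-fold lower in the ablated sample, while 0.933% of all named genes were. The 7 were Spon1, Thbs2, Postn, Sparc, Tnc, Thbs1 and Tnxb. Spon2 and Thbs3 were lower by less than 2-fold, so that 9 of the 10 were lower by any amount, against 47.0% of all named genes. Thbs4 was the 1 gene with a higher signal in the ablated sample. None of the 10 was at least 2-fold higher, while 0.304% of all named genes were. The median difference of the 10 genes, ablated minus control on the log2 scale, was -1.21, and that of all named genes was 0. All 10 had at least 1 signal above the filter, and of the genes passing it 1.73% were at least 2-fold lower.

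**Figure D1:**
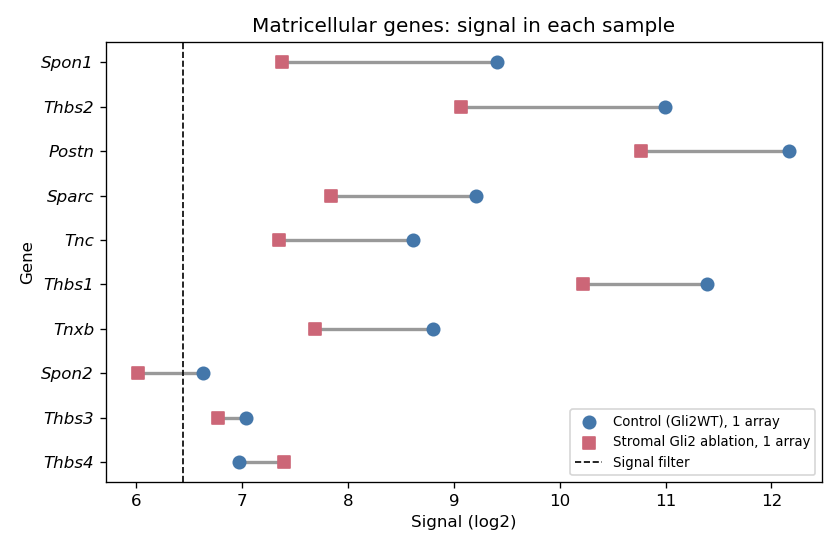
Signal (log2) of each matricellular gene in the control array (circles) and the Gli2-ablated array (squares), ordered by their difference, with the signal filter of 6.445 dashed. The 7 upper genes have the control signal more than 1 log2 unit to the right, and Thbs4 at the bottom is the 1 gene with the order turned. Probes differ between genes, so signals of different genes do not rank their RNA amounts.

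Promoter sequences are shown for 4 of the genes that were lower together and for Thbs4, the gene that was higher. They are the 250 bases before the transcription start in RefSeq's annotation of GRCm38.p6, 5′ to 3′ on the strand of the gene, and capitals mark the letters TATAAA on either strand. The Thbs2 window is chr17:14694263-14694512 on the minus strand, the Postn window chr3:54360857-54361106 on the plus strand and the Tnc window chr4:64046937-64047186 on the minus strand. The Sparc window is chr11:55420081-55420330 and the Thbs4 window chr13:92794819-92795068, both on the minus strand. For Postn and Tnc, which each have 2 windows in the table, the second is shown.
Thbs2: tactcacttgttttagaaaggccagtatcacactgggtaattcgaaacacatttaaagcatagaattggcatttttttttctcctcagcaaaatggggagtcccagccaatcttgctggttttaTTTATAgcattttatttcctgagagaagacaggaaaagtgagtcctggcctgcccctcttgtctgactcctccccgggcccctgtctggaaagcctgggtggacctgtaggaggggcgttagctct
Postn: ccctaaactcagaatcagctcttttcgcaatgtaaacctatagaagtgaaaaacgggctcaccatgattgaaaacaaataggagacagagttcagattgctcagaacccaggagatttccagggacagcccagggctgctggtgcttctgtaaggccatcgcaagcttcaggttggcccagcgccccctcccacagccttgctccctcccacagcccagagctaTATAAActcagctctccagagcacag
Tnc: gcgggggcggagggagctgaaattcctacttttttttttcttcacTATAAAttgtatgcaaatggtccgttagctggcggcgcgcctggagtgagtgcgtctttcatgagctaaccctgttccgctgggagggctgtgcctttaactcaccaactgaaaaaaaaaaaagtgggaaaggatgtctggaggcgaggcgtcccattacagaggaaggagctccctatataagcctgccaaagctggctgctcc
Sparc: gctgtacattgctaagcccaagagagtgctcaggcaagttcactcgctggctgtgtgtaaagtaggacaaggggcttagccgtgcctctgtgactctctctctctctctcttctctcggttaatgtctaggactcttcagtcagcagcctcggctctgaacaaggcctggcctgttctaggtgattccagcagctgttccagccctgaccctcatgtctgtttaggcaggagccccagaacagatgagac
Thbs4: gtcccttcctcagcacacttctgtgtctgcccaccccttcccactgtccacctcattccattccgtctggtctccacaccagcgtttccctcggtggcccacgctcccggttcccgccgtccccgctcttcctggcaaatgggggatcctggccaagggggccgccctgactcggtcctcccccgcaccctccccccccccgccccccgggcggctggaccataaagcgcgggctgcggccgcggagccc

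The table of promoters held 9 windows for 7 of the genes and none for Thbs1, Spon1 and Spon2. The GLI consensus GACCACCCA was searched on both strands and stood in 0 of the 9 windows, and in 0.225% of all 32851 windows. TATAAA was present on either strand in 4 of the 9 windows, those of 3 genes, and in 12.4% of all windows. In the second Postn window it began 26 bases before the start. Both Tnc windows, which overlap, hold the same TATAAA, 126 bases before the first start and 205 before the second. In the Thbs2 window its reverse complement TTTATA began 126 bases before the start. The AP-1 letters TGACTCA, present on either strand in 4.46% of all windows, were found for Tnxb alone, 55 bases before the start. The CArG box of serum response factor, found in 1.47% of all windows, was in 0 of the 9, and no match overlapped another. No match says only that these letters are not in these windows.

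Of the 5 windows shown, that of Thbs4 was the richest in G and C. Its 250 bases were 70.8% G or C with 19 CpG dinucleotides, above the upper quartile of 61.2% G or C over all windows. The windows of Thbs2, Tnc, Postn and Sparc held 46.8%, 51.2%, 52.0% and 54.0% G or C, with 3, 10, 4 and 4 CpG dinucleotides. Of the windows not shown, those of Thbs3 and Tnxb held 58.8% and 52.4% G or C. The first windows of Postn and Tnc held 40.4% and 44.8%. The median window held 52.4% G or C and 6 CpG dinucleotides. These values describe the sequences, and their part in the differences was not tested.

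Among the thrombospondins, large glycoproteins that bind calcium, collagens and cell surface receptors, Thbs1 and Thbs2 assemble as trimers and carry the type 1 repeats for which the family's repeat is named. Thbs2, known in mice as an inhibitor of angiogenesis that also affects collagen fibril assembly, had log2 signals of 10.99 (control) and 9.07 (ablated). Its difference was -1.92, or 3.78-fold lower, and the signed fold in the authors' deposited table was 3.76. Of 1048 genes whose mean signal lay within 0.5 of that of Thbs2, 2 were as low, Thbs2 included.

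Thbs1, an activator of latent TGF-beta and an angiogenesis inhibitor that platelets also release, had log2 signals of 11.39 (control) and 10.22 (ablated). This was a difference of -1.17, or 2.25-fold lower. Of 438 genes of like signal, 7 were as low. Of 7 platelet and megakaryocyte markers, with mean signals of 6.61 and 6.45 in the control and ablated samples, 4 lay below the filter in both. Those passing were the platelet chemokines Ppbp (7.29 and 6.47, difference -0.82) and Pf4 (-0.22) and the glycoprotein Gp9 (0.11). They were named after their values were seen, and their part in the Thbs1 difference was not tested.

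The thrombospondins that assemble as pentamers and lack type 1 repeats did not share this difference in signal. Thbs3 and Thbs4 also had control signals nearer the filter than Thbs1 (11.39) and Thbs2 (10.99). With Spon2 (6.63), they had the lowest control signals of the 10 genes, and the next lowest was that of Tnc (8.61). Probes differ between genes, so these signals do not rank RNA amounts, and the part of signal level in this split was not tested. Thbs3, a thrombospondin of cartilage and other connective tissue, had log2 signals of 7.04 (control) and 6.77 (ablated), a difference of -0.27. The spread of differences among genes of like signal was 0.22 (scaled median absolute deviation), and 15.7% of them were as low. Thbs4, known in muscle, tendon and nervous tissue, had log2 signals of 6.97 (control) and 7.40 (ablated), a difference of 0.43, or 1.35-fold higher. Among 4190 genes of like signal, 137 (3.27%) were as high as Thbs4. The cartilage pentamer Comp, which is not among the 10 genes, lay below the filter in both samples (5.36 and 5.28). It and the other relatives set beside the 10 genes were grouped by family after their values were seen.

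The tenascins are large matrix glycoproteins that modulate cell adhesion. Tnc, tenascin C, is known to be expressed around growing mammary epithelium and in wounds, and had log2 signals of 8.61 (control) and 7.35 (ablated). The difference was -1.26, or 2.39-fold lower, and 1.06% of 3412 genes of like signal were as low. Tnxb, tenascin X, a collagen-associated tenascin of loose connective tissue whose human counterpart is lost in a form of Ehlers-Danlos syndrome, had 8.80 and 7.69. It was 2.16-fold lower (difference -1.11). The other tenascins, Tnn (6.22 in control, 6.42 in ablated) and Tnr (5.09 and 5.43), lay below the filter in both samples.

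Periostin, which binds collagen and integrins and is known for its role in collagen fibril assembly and wound repair, had log2 signals of 12.17 (control) and 10.77 (ablated). Postn was 2.64-fold lower (difference -1.40). Of 190 genes of like signal, 2 (1.05%) were as low, Postn included, and its difference was 11.8 times their spread. Tgfbi, the other fasciclin-domain gene of this type, had 9.76 and 9.31, a difference of -0.45. Both genes were lower, and the difference of Postn was the larger of the pair.

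Sparc, a collagen-binding glycoprotein that takes part in procollagen processing, had log2 signals of 9.21 (control) and 7.84 (ablated). It was 2.58-fold lower (difference -1.37), and 0.828% of 2897 genes of like signal were as low. Fstl1, a follistatin-like secreted protein (8.73 and 7.32), and Sparcl1, also known as hevin (10.22 and 8.95), had differences of -1.41 and -1.27. Smoc2, Spock1 and Spock2, which share its calcium-binding module, had differences of -0.24, -0.23 and -0.14, the ablated signal of Spock1 (6.28) lying below the filter. Smoc1 (6.2 and 6.13) and Spock3 (5.46 and 4.92) lay below it in both samples.

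The spondins carry the type 1 repeats of the thrombospondins together with a spondin domain. Spon1, F-spondin, known for guiding axons and for binding the amyloid precursor protein and ApoE receptors, had log2 signals of 9.41 (control) and 7.38 (ablated). Its difference of -2.03, or 4.08-fold lower, had rank 7 from the lowest of all 24646 named genes. Of 2983 genes of like signal, 2 were as low, Spon1 included. Spon2, a secreted spondin known in mice as a pattern recognition molecule and integrin ligand of innate immunity, had 6.63 and 6.02, a difference of -0.61 or 1.53-fold. Its ablated signal lay below the filter, so the size of this difference is uncertain.

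**Figure D2:**
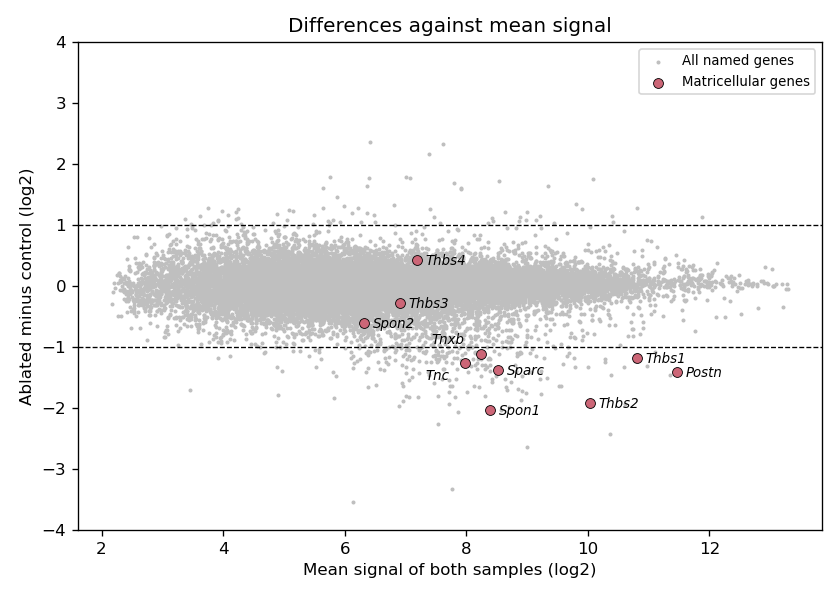
Difference (ablated minus control, log2) against the mean signal of both samples (log2) for all named genes (grey) and the 10 matricellular genes (red), with 2-fold dashed. The 7 lowest of the 10 genes lie below the lower dashed line, with Spon1 at -2.03 and Thbs2 at -1.92 farthest down, while Thbs3 at -0.27 and Thbs4 at 0.43 lie between the lines. The axis leaves out 1 gene beyond its range.

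A fixed list held 19 other matricellular genes. On that list 15 genes were lower, 3 were higher and 1 was equal, while 47.0% of all named genes were lower. Of the 19 genes, 3 were at least 2-fold lower (15.8%, against 0.933% of all named genes). Those 3 were Fstl1, Sparcl1 and Cyr61, an integrin-binding CCN protein (9.59 in control and 8.50 in ablated, difference -1.09). Wisp1, another CCN protein, followed at -0.86, with an ablated signal of 5.83, below the filter. The list's median was -0.24 over all 19 genes, -0.42 over the 12 that passed the filter, beside -1.21 for the 10 genes. A filter at the 75th percentile gave -0.77 and -1.37.

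**Figure D3:**
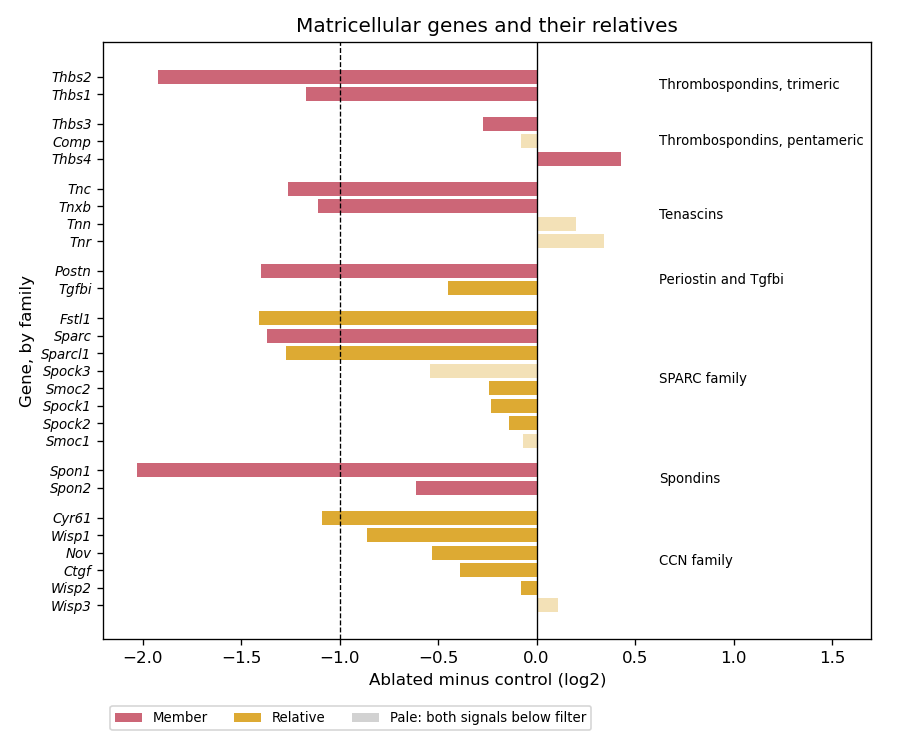
Difference (ablated minus control, log2, 1 array each) of the 10 matricellular genes (red) and their relatives (yellow), by protein family, with 2-fold lower dashed and genes with both signals below the filter drawn pale. Thbs1 and Thbs2 (control signals 11.39 and 10.99) lie beyond the dashed line and Thbs3 and Thbs4 (7.04 and 6.97) do not. In the SPARC family Sparc, Fstl1 and Sparcl1 (control signals 9.21, 8.73 and 10.22) lie beyond it. The other SPARC family genes, with control signals of 7.23 or lower, do not. Tgfbi and Ctgf, with control signals of 9.76 and 7.93, do not lie beyond it either (differences -0.45 and -0.39). The part of signal level was not tested.

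Most receptors of these proteins were lower, with a smaller median difference, and some were higher. Of 23 receptor genes, 18 were lower and 5 higher, with a median of -0.29, while 47.0% of all named genes were lower. The differences ran from -1.41 to 0.39, the highest being that of the integrin chain Itga4 (9.68 in control and 10.07 in ablated). At least 2-fold lower were 3 receptor genes (13.0%, against 0.933% of all named genes). Lrp1, the endocytic receptor that clears thrombospondins, had log2 signals of 9.77 (control) and 8.36 (ablated), a difference of -1.41. The epidermal growth factor receptor Egfr, which repeats of tenascin C can bind, had a difference of -1.20. The integrin chain Itga5 had -1.11, and App, the amyloid precursor protein that F-spondin binds, had -0.83. The thrombospondin receptors Cd47 (11.01 and 10.94) and Cd36 (10.14 and 9.57) had differences of -0.07 and -0.57, named after their values were seen.

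Matrix partners, the collagens, crosslinkers and proteases that these proteins bind or act with, were lower throughout. The list's median was -0.94, and all 18 listed genes had a lower signal in the ablated sample, against 47.0% of all named genes. All 18 passed the filter, and 9 were at least 2-fold lower, against 0.933% of all named genes and 1.73% of those passing the filter. They included the collagen chains Col1a1 (-1.87), Col1a2 (-1.69), Col3a1 (-1.29) and Col12a1 (-1.05). The crosslinking oxidase Lox (-1.64), the gelatinase Mmp2 (-1.46), the latent TGF-beta binding protein Ltbp1 (-1.22), the collagen chaperone Serpinh1 (-1.14) and the procollagen protease Bmp1 (-1.07) made up the 9. The ablated signal of Col12a1 (6.12) lay below the filter. A second, dimmer cluster of Col1a2 had a difference of -1.19.

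A further list held genes outside the family that share the thrombospondin type 1 repeat with Thbs1, Thbs2 and Spon1. Of 27 such genes, 21 were lower and 6 higher, while 47.0% of all named genes were lower. A signal at least 2-fold lower was seen for 2 of the 27 (7.41%, against 0.933% of all named genes). The median was -0.31 over all 27, of which 13 lay below the filter in both samples, and -0.60 over the 14 that passed it, or -0.88 at the 75th percentile. Those at least 2-fold lower were the procollagen protease Adamts2 (8.29 and 6.94, difference -1.35) and the aggrecanase Adamts5 (6.92 and 5.85, difference -1.07). The protease Adamts9 (-0.97) and the secreted isthmin Ism1 (-0.86) came next. The ablated signal of Adamts5 lay below the filter, so the size of its difference is uncertain.

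Fibroblast markers differed in the same direction as most of the 10 genes, with a similar median. All 12 were lower and 9 passed 2-fold, 1 of them with its ablated signal below the filter. Their differences ran from -1.98 (Pdgfra) to -0.07 (Fap), with Dcn (12.51 in control and 12.01 in ablated) at -0.50. Their median was -1.34, and their mean signals were 9.26 (control) and 8.0 (ablated), and 4 of the 12 are also on the list of matrix partners. Relative to that median, Spon1 stood at -0.69, Thbs2 at -0.58, Postn at -0.06 and Sparc at -0.03, and Tnc, Thbs1 and Tnxb lay above it by 0.08, 0.17 and 0.23. Spon2, Thbs3 and Thbs4 lay 0.73, 1.07 and 1.77 above it. In these bulk samples fewer fibroblasts and less RNA per fibroblast cannot be told apart, and the part of either in the matricellular differences was not tested.

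Markers of other cells in the sort were recorded beside these values. Of the T and NK cell markers, 10 of 11 were higher (median 0.33, mean signals 9.85 and 10.20). Endothelial markers were lower in 10 of 10 (median -0.41, mean signals 7.88 and 7.38), and smooth muscle and pericyte markers in 11 of 11 (median -0.39, 6.96 and 6.56). Schwann cell markers had a median of -0.37 (7 of 8 lower, 7.14 and 6.76), mast cell markers -0.45 (7 of 8 lower, 7.90 and 7.42) and adipocyte markers -0.38 (8 of 8 lower, 7.26 and 6.79). Macrophage markers had a median of -0.32 (8 of 9 lower, 9.01 and 8.76). Luminal epithelial markers had a median of -0.02 (5 of 9 lower, 7.91 and 7.95) and basal epithelial markers of 0.03 (2 of 6 lower, 6.04 and 5.92). Of all named genes, 47.0% were lower by any amount. Below the filter in both samples lay 5 of 6 basal, 4 of 8 adipocyte and 3 of 8 Schwann cell markers. So did 3 of 11 smooth muscle and pericyte and 3 of 9 luminal markers, and 1 endothelial and 1 mast cell marker. The part of these cell types in the matricellular differences was not tested.

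**Figure D4:**
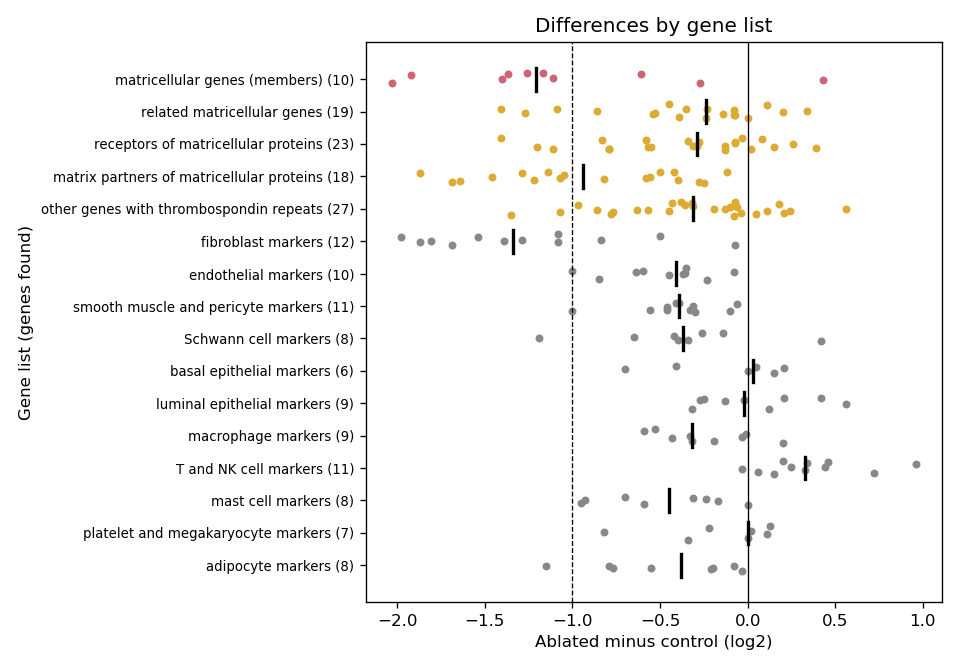
Difference (ablated minus control, log2) of each gene (points) and the median (bar) for the 10 matricellular genes (red), the 4 related lists (yellow) and the 11 marker lists (grey), with the number of genes found. The medians of the matricellular genes (-1.21) and the fibroblast markers (-1.34) lie beyond 2-fold (dashed), and the T and NK cell median lies to the right of 0.

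The genes lying next to the matricellular genes on their chromosomes were also read. For each gene the 2 nearest coding genes with a value on either side were taken in RefSeq's GRCm38 gene order, a choice made after the values of the 10 genes were seen. Of these 40 neighbours, 0 were at least 2-fold lower and 0 at least 2-fold higher, near the 0.933% and 0.304% of all named genes. Their median was -0.04, near that of all named genes, and they ranged from -0.78 to 0.33. The lowest was the complement gene C4b beside Tnxb (control 7.87, ablated 7.09), named after its value was seen. Spon1 stood between Far1 (-0.20) and Rras2 (0.05), and Postn between Trpc4 (0.33) and Exosc8 (0.17).

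**Figure D5:**
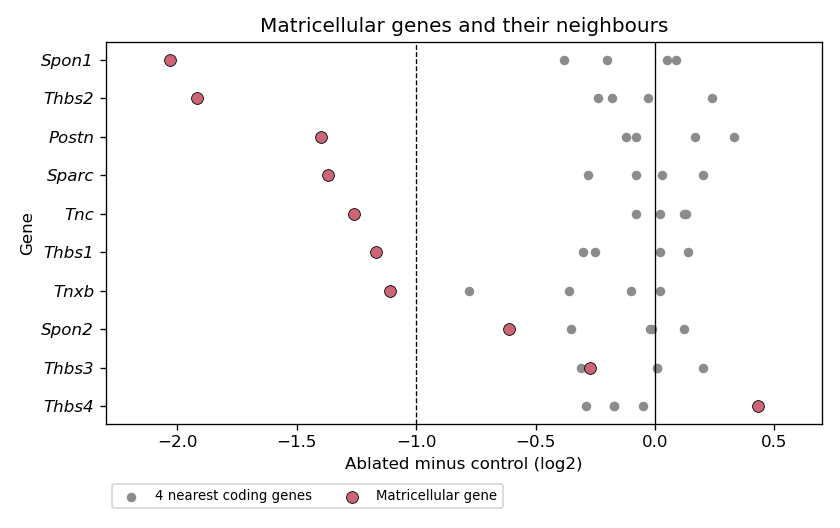
Difference (ablated minus control, log2) of each matricellular gene (red) and of its 4 nearest coding genes with a value (grey), with 2-fold lower dashed. The neighbours run from -0.78 to 0.33, a count of 0 beyond the dashed line that is near the 0.933% of all named genes there.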

How the data were processed

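RNA of sorted mammary stromal cells was measured on Affymetrix arrays in 1 control and 1 Gli2-ablated sample. The authors deposited a log2 bi-weight average signal per transcript cluster, per the file headers, and beside it a signed linear fold of control over ablated, which is another unit (a fold, negative where the ablated sample is higher). The submitters' processing notes name Transcriptome Analysis Console. The normalization, background correction, array design and build were not given in the sources used here. The tables hold no detection calls, and a shift shared by all genes could be hidden by normalization. The number of arrays limits the precision.

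Of 41345 clusters with values, 27036 had a gene symbol. Keeping, for each symbol, its cluster of highest mean signal gave 24646 genes, and the measure was the log2 signal of the ablated minus that of the control sample. Spread is the scaled median absolute deviation over genes whose mean signal lay within 0.5.

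The members and the gene lists were chosen with earlier results of these data known. The rule for names was all 10 members, and in each related list the genes at least 2-fold apart and up to 4 with the largest differences among those passing the filter. Of the marker symbols, Adgre1 (found as Emr1) and Trac were not found. Alternatives were quantile and loess (span 0.3) scaling, the median difference set to 0, other row rules, the deposited fold, the value table, other folds and signal filters. The steps were tested on simulated data. Software was Python 3.11.15 with pandas 2.3.3, numpy 2.4.6, matplotlib 3.10.9 and statsmodels 0.14.6.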

Additional observations from a re-analysis of the deposited data

How the results depend on the processing

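Under 3 other scalings (quantile, loess and the median difference set to 0), all 30 recomputed member differences kept their direction, and the largest shift was 0.05. The deposited signals already had a median of 6.13 in both arrays and a median gene difference of 0. Rescaling therefore had little to correct, and the small shifts say nothing about a repeat with other samples. The median member difference ran from -1.26 to -1.21, and the count of members at least 2-fold lower stayed at 7. The row rules could not move these values, since each member stands on 1 row, and the deposited fold and the value table restate the same signals within rounding. At 3-fold in place of 2-fold that count was 2, Spon1 and Thbs2, as a stricter size implies. With the signal filter at the median, the median of the other genes with thrombospondin repeats was -0.60. A filter at the 75th percentile gave -0.88 for that list, -0.77 for the related matricellular genes and -1.22 for the matrix partners, over fewer genes. No paired analysis was possible because each group holds 1 sample. Signals near or below the filter, as for Spon2 in the ablated sample, limit what a difference there can show.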

Other observations

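The deposited comparison table and the series' deposited value table give the same log2 signals within 0.006 for 41343 of 41345 transcript clusters. The 2 exceptions are the clusters of Gli2 and Bmp7, both named in the study's design text. For Gli2 the comparison table has 5.94 (control) and 5.32 (ablated) (difference -0.62), and the value table has 5.94 and 5.72 (difference -0.22, 1.16-fold). For Bmp7, a bone morphogenetic protein, the comparison table has 7.79 and 7.14 (difference -0.65) while the value table has 7.90 and 7.56 (difference -0.35, 1.27-fold). The signed folds in the authors' deposited table, 1.56 for Gli2 and 1.58 for Bmp7, follow the comparison table's signals. The spread among genes of like signal was 0.24 for Gli2 and 0.21 for Bmp7. Which of the deposited values is right cannot be told from the files, and the cause was not tested.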
